A study of Oreochromis niloticus and Pundamilia nyererei with 6 samples.

Results

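Transcripts of liver RNA for which no strand is listed, and which lie far from every stranded transcript, were examined in 2 cichlid fishes, the Nile tilapia Oreochromis niloticus (ON) and Pundamilia nyererei (PN). A transcript was a member where its strand was not given, its span touched no stranded transcript, its sequence also carried stranded transcripts, and at least 5000 bases separated it from the nearest of them. The rule chose 3553 of 41456 transcripts in ON and 6472 of 45966 in PN, and it used no measured level. They are called distant strandless transcripts here. Strandless transcripts that also lay outside every stranded span but under 5000 bases away, 1712 in ON and 4345 in PN, are called near strandless transcripts and serve for comparison.

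The libraries came from the livers of 3 ON males of about the 93rd tank-reared generation, from Manzala in Egypt, and of 3 PN males of tank-reared generation 1, from Lake Victoria. No treatment or genetic change was given to either group, and each fish gave 1 library, so fish are the replicates. Ribosomal RNA had been depleted before stranded libraries were made and read as pairs of 75 bases, which the authors aligned to the genome of the same species (ASM185804v2 for ON, PunNye1.0 for PN) and assembled with StringTie and the reference annotation. Abundance is given as FPKM, the number of fragments scaled to transcript length in kilobases and to mapped fragments in Mio.

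Genomes are transcribed well beyond their annotated genes, and the products include long noncoding RNAs, RNAs made at enhancers, transcripts of repeats and transposable elements, and unannotated genes. An assembler reads the strand of a spliced transcript from the splice site, and a transcript with a single exon offers no such site, so a strandless entry is usually a continuous stretch of reads without introns. Depletion of ribosomal RNA, unlike selection of poly(A) tails, keeps RNAs that have no tail, among them many of these products. In the study's terms, nORFs are uncharacterized open reading frames, in its data noncoding stretches outside the annotation that are transcribed in a single species. The study carried forward the intronic and intergenic ones with peptide evidence of translation. The distant strandless transcripts may hold candidates for nORFs, and they were filtered neither for expression in a single species nor for translation. They carry serial names (mRNA followed by a number) and no gene name, and the same serial name stands for unrelated transcripts in ON and PN. For the same reason the labelled tissue could not be checked against liver marker genes.

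The depth was even. Aligned bases, computed from the ratio of coverage to FPKM, were equivalent to 13.2 to 13.3 Mio read pairs in the ON and 11.3 to 13.0 Mio in the PN libraries. The mean number of read pairs that the paper reports as generated is for the ON and PN livers together. It is below all the ON values and those of PN fish 1 and 3, and above that of PN fish 2. The equivalents are thus not taken as counts of read pairs, and the source of the gap was not tested. At these depths 3 reads give an FPKM of 0.113 to 0.133 on 1000 bases, and of 0.563 to 0.665 on 200 bases. Where a transcript of that length is listed below that level, its presence was not detectable at this depth. Floors cover counting error only.

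Distant strandless transcripts were short and mostly of low level. The median length was 431 bases in ON and 465 bases in PN, against 519.5 and 603 bases for near strandless transcripts and 2422 and 2271 bases for stranded ones. The shortest had 200 bases in both species, 1989 ON and 3453 PN transcripts were under 500 bases, and 15 and 21 were longer than 10000 bases. The median of the mean FPKM over the 3 fish was 1.22 in ON and 1.55 in PN, close to the 1.27 and 1.47 of near strandless transcripts. For stranded transcripts it was 0.629 and 1.47. Those include entries without coverage in any fish, which the distant set does not, so these medians are of unlike sets. A mean FPKM under 5 was found for 95.8% of them in ON and 89.2% in PN, and 71 and 253 reached a mean FPKM of 10. The lowest mean was 0.431 in ON and 0.461 in PN. Coverage in the highest fish was at least 1.79 in ON and 1.65 in PN. Entries with less are not in the set, and a low mean can rest on a single fish.

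The set as a whole held a small part of the liver RNA, a larger one in PN than in ON. In ON the distant strandless transcripts took 1.19%, 1.46% and 1.07% of the aligned bases in fish 1, 2 and 3. In PN they took 1.59%, 1.89% and 1.78%. Every PN library lay above every ON library, with 1.24% ± 0.20 (SD, n = 3) against 1.76% ± 0.15 (SD, n = 3), a difference of 0.52 percentage points (two-sided exact permutation test, p = 0.10, adjusted over 3 measures 0.10). For 3 fish against 3 this test cannot go below 0.10. The distant set was not alone in this, since near strandless transcripts took 0.80% to 1.22% in the ON and 2.61% to 3.26% in the PN libraries. Stranded transcripts took 89.9% to 93.2% and 89.6% to 91.4%, ranges that overlap. The PN set also held more transcripts, 6472 against 3553. Genome, annotation and merged transcript set change with the species, so fish and these cannot be told apart in any comparison of ON with PN here.

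Detection was higher in PN as well. An FPKM above 0 was listed for 87.0%, 87.8% and 86.5% of the ON set in the 3 fish and for 92.4%, 94.3% and 93.4% of the PN set. The groups did not overlap, with means of 87.1% ± 0.68 and 93.4% ± 0.97 (SD, n = 3; two-sided exact permutation test, p = 0.10, adjusted 0.10). The gap was not particular to the distant set, since 81.6% to 82.8% of stranded transcripts were above 0 in the ON and 87.1% to 88.7% in the PN fish, and 88.4% to 90.01% and 93.7% to 97.1% of near strandless ones. In ON, 2507 of the 3553 transcripts (70.6%) were above 0 in every fish, 719 in exactly 2 fish and 327 in a single fish. In PN, 5442 of the 6472 (84.1%) were above 0 in every fish, 771 in 2 fish and 259 in a single fish. The shares above 0 in every fish lay between those of stranded transcripts, 66.2% in ON and 75.7% in PN, and of near strandless ones, 76.4% and 89.2%. Among distant strandless transcripts found in a single fish, the ON ones were mostly those of fish 2 (189, against 77 in fish 1 and 61 in fish 3). In PN fish 1, 2 and 3 held 110, 83 and 66. Such transcripts have coverage in that fish alone, and this split by fish was not taken for other classes.

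The level relative to near strandless transcripts differed in sign between the species, by a small amount. Taken over those above 0, distant minus near strandless transcripts gave a median log2 FPKM of -0.01, -0.04 and -0.01 in the ON fish and 0.10, 0.06 and 0.10 in the PN fish. The difference of the means, PN minus ON, was 0.11 on the log2 scale (two-sided exact permutation test, p = 0.10, adjusted 0.10, n = 3 fish per species). The opposite signs were lost at an FPKM of at least 1 in every fish, where the means were 0.01 in ON and 0.04 in PN, a difference of 0.02 (exact permutation p = 0.60). The plot of the 3 measures per fish shows each library beside the mean and SD of its species.

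**Figure D1:**
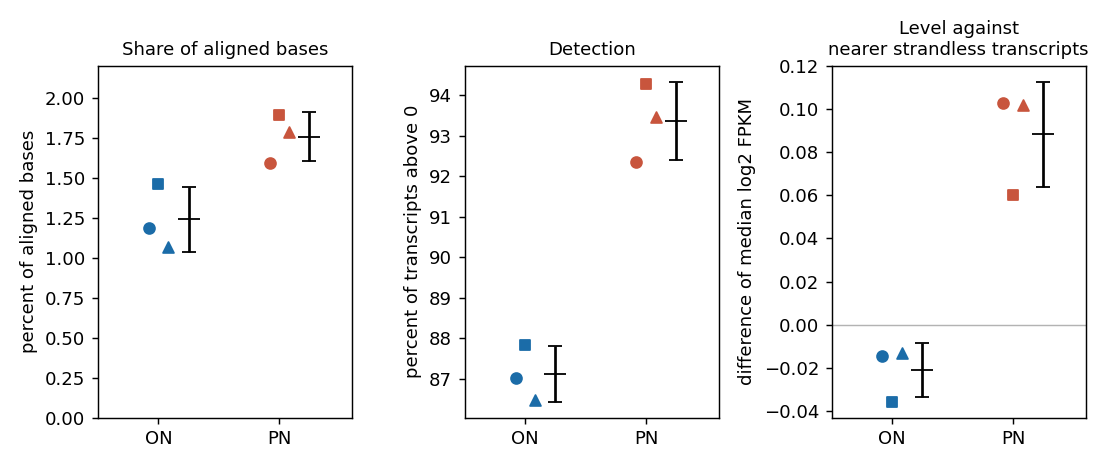
Share of the aligned bases in distant strandless transcripts (percent, axis from 0), percent of them above an FPKM of 0 (axis not from 0) and their median log2 FPKM minus that of near strandless transcripts, per fish. Circles, squares and triangles are fish 1, 2 and 3, and bars give the mean and SD of 3 fish; in each panel the 3 PN fish lie above the 3 ON fish, and in the last panel ON lies below 0 and PN above.

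Detection in every fish followed length. In ON it rose from 54.4% of the 1045 transcripts of 200 to 300 bases to 77.0% at 500 to 1000 bases and 92.8% of the 83 over 5000 bases. In PN it rose from 70.3% of 1757 to 91.1% and 96.2% over the same classes. Transcripts at 0 in a fish had a median length of 324 bases in ON and 298 in PN, against 517 and 516 bases for those above 0 everywhere. In the fish where they were highest, their median was 18.1 and 15.8 read equivalents, that is covered bases divided by the read length of 75. For all distant strandless transcripts above 0, the median per fish was 17.6 to 18.8 read equivalents in ON and 20.0 to 24.1 in PN, taken in each fish and not in the highest. Of the transcripts at 0 in a fish, 169 in ON (16.2%) and 118 in PN (11.5%) held over 50 read equivalents in another. The spread between fish was widest among the shortest, with a median relative SD of 88.9% in ON and 66.9% in PN at 200 to 300 bases. In ON it was lowest at 2000 to 5000 bases, at 40.5%, and 48.4% over 5000 bases. In PN it was lowest at 1000 to 2000 bases, at 30.1%, with 36.7% at 2000 to 5000 bases and 33.5% beyond.

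A few transcripts carried much of the signal. In ON the most abundant, mRNA32368, was at 2246, 2011 and 1553 FPKM in the 3 fish. It spans 1543 bases of NC_031985.1 from 3634887 to 3636429, 102159 bases downstream of the nearest stranded transcript, which stayed under 0.358 FPKM in every fish. All 3 fish were high, and this transcript alone made up 29.2%, 21.2% and 22.4% of the bases of the ON set. The next, mRNA23770 (509 bases, NC_031979.1, 4655533 to 4656041), was at 839, 1724 and 1386 FPKM, lowest in fish 1. Its nearest stranded transcript, 12012 bases away, was also abundant at 1882, 2646 and 2350 FPKM. The third, mRNA12149 (1195 bases, NC_031971.1, 15316349 to 15317543), was at 8.21, 363 and 355 FPKM, so fish 1 stood apart from the other fish. The nearest stranded transcript, 5019 bases away, differed far less, at 162, 166 and 114 FPKM. For mRNA35320 (904 bases, NC_031987.1, 837848 to 838751) the values were 130, 279 and 106 FPKM, highest in fish 2. For mRNA25456 (581 bases, NC_031980.1, 12493454 to 12494034) they were 167, 132 and 111 FPKM, a narrow range, and it lies in a chain of 6 such transcripts.

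In PN the most abundant, mRNA6622, was at 3141, 4639 and 3517 FPKM in the 3 fish. It has 373 bases (NW_005187411.1, 4307016 to 4307388), lies 28972 bases from the nearest stranded transcript, which stayed under 0.41 FPKM, and held 7.36% to 9.13% of the bases of the PN set. The second, mRNA35854 (648 bases, NW_005187690.1, 110328 to 110975), was at 1566, 86.3 and 521 FPKM, so fish 1 was 18.1 times fish 2. The fifth, mRNA11388 (252 bases, NW_005187430.1, 189912 to 190163), had the same order of fish, at 393, 30.9 and 225 FPKM. By contrast mRNA5313 (274 bases, NW_005187408.1, 681060 to 681333) was at 619, 491 and 439 FPKM and mRNA9166 (823 bases, NW_005187420.1, 2874498 to 2875320) at 240, 293 and 231 FPKM, with all fish close together. The 10 most abundant held 40.0% to 42.3% of the bases of the set in ON and 13.8% to 18.6% in PN, whose signal was thus spread over more transcripts.

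**Figure D2:**
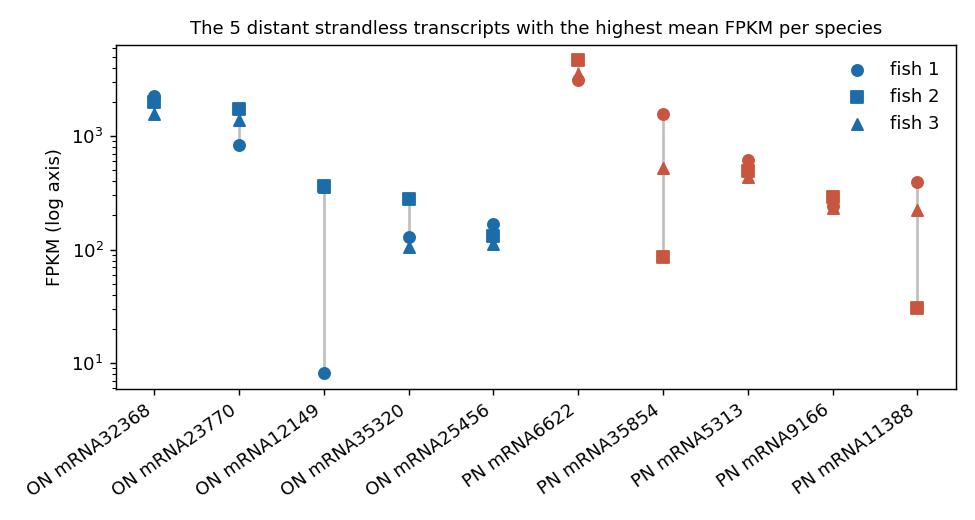
FPKM (log axis) of the 5 distant strandless transcripts with the highest mean in each species, with circles, squares and triangles for fish 1, 2 and 3 (ON in blue, PN in red) and a grey line over the range. Most have 3 nearby values, whereas ON mRNA12149 drops to 8.21 in fish 1 and PN mRNA35854 and mRNA11388 drop to 86.3 and 30.9 in fish 2.

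Long transcripts of low level formed the other end of the set. The longest in ON, mRNA14507, covers 40637 bases of NC_031972.1 (30997993 to 31038629) at 4.06, 6.95 and 5.14 FPKM, which is 4377 to 7451 read equivalents. On the same sequence mRNA15031 covers 25095 bases (44662171 to 44687265) at 3.37, 3.51 and 3.97 FPKM, a relative SD of 8.80%, and the third longest, mRNA21734, is described below with its chain. In PN mRNA28274 covers 35230 bases (NW_005187550.1, 1059016 to 1094245) at 1.53, 2.22 and 2.88 FPKM. A further PN transcript, mRNA2905, covers 28410 bases (NW_005187402.1, 12064654 to 12093063) at 1.89, 5.92 and 4.57 FPKM, and its nearest stranded transcript, 9906 bases away, ran in parallel at 2.36, 6.48 and 5.47 FPKM. The third longest, mRNA22970, covers 26877 bases (NW_005187496.1, 1257087 to 1283963) at 1.05, 2.18 and 1.64 FPKM. The 83 ON transcripts over 5000 bases held 19.4% to 21.9% of the bases of the set, and the 79 PN ones 8.85% to 10.2%.

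The steadiest of the abundant transcripts varied little. Among those with a mean FPKM of 10 or more, ON mRNA4685 (616 bases, NC_031966.1, 6029687 to 6030302) was at 11.5, 11.6 and 11.0 FPKM, ON mRNA9891 (699 bases, NC_031969.1, 33602386 to 33603084) at 30.5, 29.0 and 28.7 FPKM and ON mRNA35444 (726 bases, NC_031987.1, 5090851 to 5091576) at 28.3, 26.6 and 29.1 FPKM. In PN the values of mRNA39849 (545 bases, NW_005187844.1, 122934 to 123478) were 11.7, 11.7 and 11.8 FPKM. Those of mRNA31636 (1439 bases, NW_005187601.1, 899473 to 900911) were 10.2, 10.0 and 10.3 FPKM, and those of mRNA31848 (863 bases, NW_005187605.1, 76529 to 77391) were 14.0, 13.3 and 13.2 FPKM. Such transcripts were listed at nearly equal levels in 3 separate fish, with relative SDs of 2.89% to 4.51% in ON and 0.40% to 3.27% in PN. These are the lowest of a large set and do not show a fixed level. PN mRNA39849 had 144 to 167 read equivalents per fish, where counting error alone is larger than its relative SD.

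The median distance to the nearest stranded transcript was 23026 bases in ON and 30796.5 bases in PN, and 226 ON and 1020 PN transcripts lay 100000 bases or more away. The farthest in ON, mRNA16981 (214 bases, NC_031973.1, 30793327 to 30793540), lay 438943 bases away and was at 0.171, 1.63 and 0 FPKM, against a floor of at most 0.531. It passed that floor in fish 2 alone. The next, mRNA3297 and mRNA3298, lie at the very start of NC_031965.1 (1368 to 1835 and 2093 to 2394), with 433078 and 432519 bases before the first stranded transcript. Their values were 2.16, 0.929 and 2.75 FPKM for mRNA3297 and 2.09, 0.348 and 2.66 FPKM for mRNA3298, lowest in fish 2 in both. In PN the 3 farthest all lie on NW_005187566.1, 1135855, 1087273 and 1042071 bases from a stranded transcript. Of these mRNA29391 (296 to 659) was at 3.04, 7.22 and 5.40 FPKM, mRNA29392 (48995 to 49241) at 0, 1.47 and 1.83 FPKM and mRNA29393 (93770 to 94443) at 0.605, 1.06 and 1.54 FPKM. In ON 419 transcripts (11.8%) and in PN 1526 (23.6%) lay beyond the first or last stranded transcript of their sequence.

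The distance threshold did not mark a step in level. Just inside it, ON mRNA35575 at 5003 bases was at 0.259, 0.701 and 1.71 FPKM and ON mRNA30479 at 5008 bases at 0.804, 2.08 and 0.466 FPKM. Just outside it, ON mRNA33061 at 4998 bases was at 13.7, 33.4 and 12.2 FPKM and ON mRNA35181 at 4991 bases at 1.56, 0 and 1.5 FPKM. In PN mRNA21708 at 5007 bases was at 3.57, 3.12 and 4.80 FPKM and mRNA17234 at 5008 bases at 0.0727, 0.5 and 1.74 FPKM. The PN transcripts just outside, mRNA24103 and mRNA27335, both at 4998 bases, were at 0.833, 0.620 and 1.63 FPKM and at 1.88, 3.25 and 1.87 FPKM. Over all distance classes from under 500 to over 100000 bases, the median of the mean FPKM ran from 1.18 to 1.39 in ON and from 1.43 to 1.6 in PN. Strandless transcripts with little coverage in every fish are not listed, which bounds these medians from below.

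Other properties did change with distance. From under 500 to beyond 100000 bases, the median length of strandless transcripts went from 655.5 to 380.5 bases in ON and from 723.5 to 436.5 in PN. Detection in every fish went from 84.8% to 64.6% and from 91.3% to 82.1%. The side on which a transcript lay changed as well. RNA polymerase often runs on past the end of a gene, and readthrough RNA and unannotated ends of the last exon therefore lie downstream of it. Under 500 bases from a stranded transcript, 72.2% of 396 ON and 75.3% of 1012 PN strandless transcripts lay downstream of it, and at 2000 to 5000 bases 51.1% and 51.6% did. In the distant set 1776 of 3553 ON transcripts (49.99%) and 3254 of 6472 PN transcripts (50.3%) lay downstream, against 60.3% and 61.9% of all near strandless ones. In ON the share was 44.4% of the 559 at 50000 to 100000 bases and 40.3% of the 226 beyond, where in PN it was 51.3% of 1194 and 48.9% of 1020. Across transcripts, Spearman's rho between the mean FPKM and that of the nearest stranded transcript was -0.01 over 3553 ON and -0.03 over 6472 PN distant strandless transcripts, and 0.15 and 0.11 over the near ones. These are descriptions over transcripts measured in the same libraries, which are not independent.

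A further property changed with distance, namely whether covered bases came to a whole number. Coverage times length gives the covered bases of a transcript, a whole number where each read is counted in full. StringTie divides a read that aligns at several places among them, so repeated sequence is a known source of totals that are not whole. Covered bases were not whole, to a tolerance of 0.05, in 53.5% to 54.6% of the ON and 58.9% to 61.2% of the PN distant strandless transcripts assessed per fish. For near strandless transcripts the ranges were 41.1% to 43.2% and 35.3% to 37.7%, so in every library the distant set lay higher than the near one. Strandless transcripts inside stranded spans also lay lower than the distant set, at 25.3% to 25.9% in ON and 43.6% to 44.3% in PN. Higher than the distant set in ON were stranded transcripts, with 59.9% to 60.4%, and strandless ones on sequences without stranded transcripts, with 78.8% to 82.5%. In PN these last classes were at 54.3% to 56.3% and 45.4% to 48.5%. Stranded transcripts can overlap one another and share reads, whereas no distant strandless transcript overlapped another transcript. The share of stranded transcripts is thus not a like measure. By distance, the PN share climbed from 28.6% under 500 bases to 51.5% at 5000 to 10000 bases and 68.0% beyond 100000 bases. In ON it climbed from 34.2% to 54.6% at 5000 to 10000 bases, and across the distant classes it showed no steady rise, at 58.6%, 54.8%, 53.8% and 58.6% from 10000 bases on. Whether reads with several alignments account for these totals was not tested, as the tables hold no alignments.

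**Figure D3:**
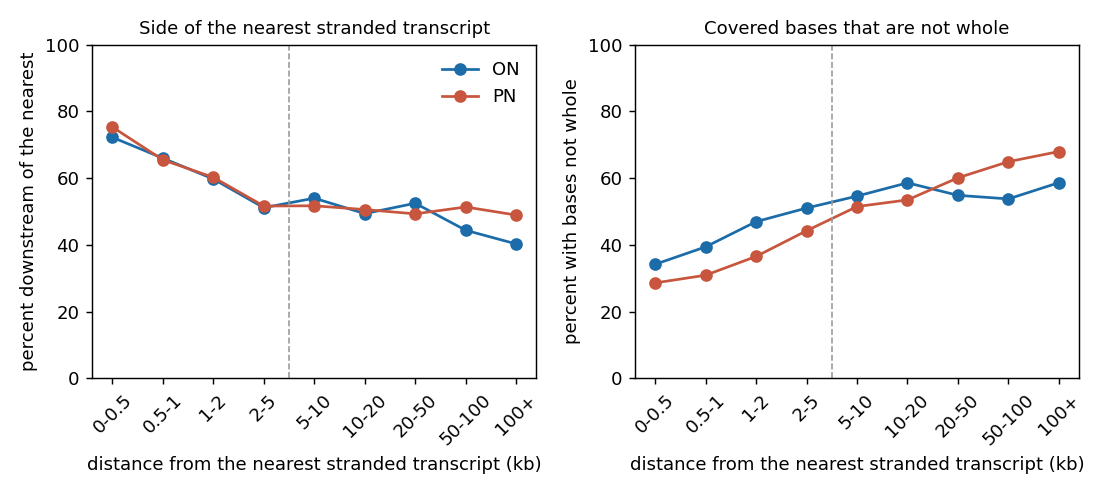
Percent of strandless transcripts downstream of the nearest stranded transcript (left) and percent with covered bases that are not whole, averaged over the fish (right), by distance in kb, for ON (blue) and PN (red). Classes right of the dashed line, at 5 kb, are distant strandless transcripts; the share downstream falls from 72.2% and 75.3% to near 50% by 2 to 5 kb, while the share not whole rises with distance throughout in PN and up to 10 to 20 kb in ON.

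Along the sequences, distant strandless transcripts came singly and in chains. Where transcripts with gaps of at most 5000 bases were joined, 1304 in ON (36.7%) formed 499 chains of 2 or more, and 2463 in PN (38.1%) formed 941. Chains of 5 or more numbered 31 and 60. The rule itself bars overlap with a stranded transcript. No distant strandless transcript overlapped another strandless one either, and the smallest gap was 252 bases in ON and 251 in PN. Members of long chains were longer, were found in every fish more often and were whole more often. From single transcripts to chains of 5 or more, the median length rose from 381 to 796 bases in ON and from 440 to 807.5 bases in PN. Detection in every fish rose from 64.9% to 92.2% and from 82.8% to 93.1%. The share with covered bases not whole fell from 59.4% to 38.7% in ON and from 68.5% to 17.2% in PN. In PN the median of the mean FPKM was lower in those chains, at 1.19 against 1.69 for single transcripts, whereas in ON it was higher, at 1.41 against 1.16.

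The chain with the most transcripts in ON was high in a single fish along its whole length. Its 14 transcripts lie on NC_031977.1 from 25802340 to 25885110, cover 79.5% of these 82771 bases and start with mRNA21734, which has 19828 bases. In fish 1 they ran from 1.46 to 2.19 FPKM, in fish 2 from 0.105 to 0.831 and in fish 3 from 0.161 to 0.615. All 14 were highest in fish 1, whose lowest value lay above the highest of the other fish. Every transcript of the ON set reached a coverage of at least 1.79 in its highest fish. A region that is high in a single fish can thus enter the set through that fish alone. The 14 are neighbours in such a region and are not separate observations of fish 1. Summed over the chain the levels were 1.93, 0.551 and 0.476 FPKM. The nearest stranded transcript to mRNA21734 had the same order, at 0.966, 0.416 and 0.326 FPKM. In this chain 12.8% of the totals assessed were not whole.

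Other long chains differed less between the fish. On NC_031971.1 (40746636 to 40762743), 9 ON transcripts had summed levels of 1.17, 1.25 and 1.77 FPKM, and the most abundant of them, mRNA13154 with 248 bases, was at 0.548, 3.8 and 0.418 FPKM. On NC_031986.1 (9210689 to 9243806), 8 ON transcripts had summed levels of 2.27, 1.20 and 2.13 FPKM, with mRNA34131 at 3.36, 1.47 and 1.64 FPKM. The largest PN chain has 19 transcripts on NW_005187419.1 from 3675196 to 3726519, at least 168241 bases from any stranded transcript. Its summed levels were 1.67, 1.32 and 0.891 FPKM, and its most abundant transcript, mRNA8923 with 2832 bases, was at 2.82, 2.98 and 2.47 FPKM. The second has 18 transcripts over the first 79574 bases of NW_005187698.1, with summed levels of 1.38, 1.95 and 1.10 FPKM and mRNA36096 at 2.35, 3.36 and 1.09 FPKM. The third has 17 transcripts on NW_005187470.1 (803275 to 851091), with summed levels of 1.05, 1.46 and 1.36 FPKM and mRNA19286 at 0.912, 2.16 and 1.42 FPKM. In that chain every total assessed was whole.

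**Figure D4:**
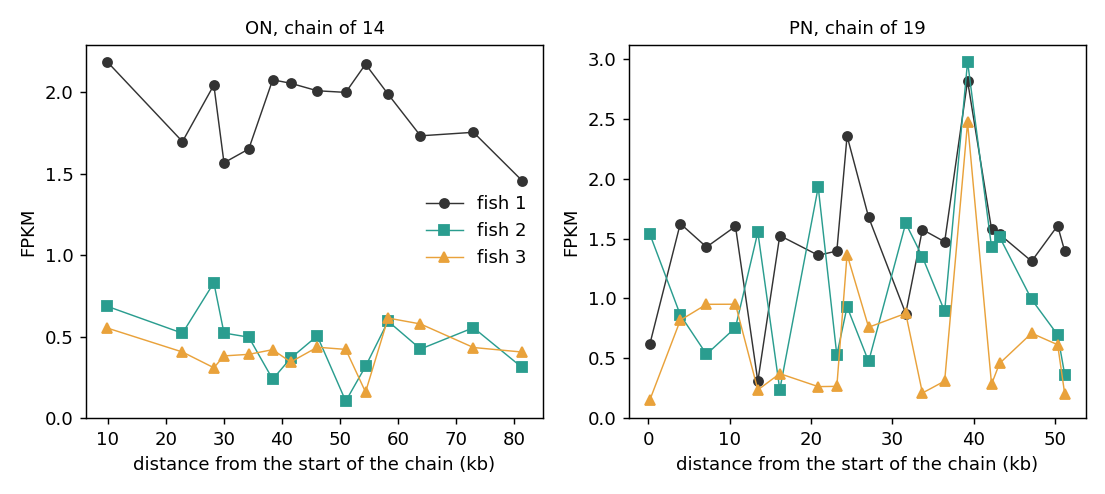
FPKM of each transcript in the largest chain of ON (14 transcripts, left) and PN (19 transcripts, right) against the distance of its middle from the start of the chain in kb, per fish. In ON fish 1 (black circles) stays at 1.46 to 2.19 along the chain, above all values of fish 2 and 3, whereas in PN the lines of the 3 fish cross.

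Neighbours shared the order of the fish only over short gaps. For each transcript the log2 FPKM (0.1 added) of every fish was taken relative to the mean of the 3 fish, and these deviations were correlated between neighbouring distant strandless transcripts. In ON Pearson's r was 0.64 over 134 pairs under 500 bases apart, 0.40 over 171 pairs at 500 to 1000 bases, 0.33 over 500 pairs at 1000 to 5000 bases and 0.21 over 454 pairs at 5000 to 20000 bases. Over the 2025 pairs farther apart it was 0.00. In PN it was 0.44, 0.51, 0.33, 0.08 and 0.04 over 281, 284, 957, 1080 and 3148 pairs. The share of pairs with the same highest fish went from 66.4% to 35% in ON and from 57.3% to 34.9% in PN. Among transcripts with a mean FPKM of at least 2, a setting added after seeing the data, r for gaps under 1000 bases was 0.15 over 54 ON pairs and 0.80 over 82 PN pairs, against 0.50 and 0.48 without that minimum. Pairs share libraries, so no p is given. Across all distant strandless transcripts above 0 in every fish, Spearman's rho between fish was 0.18 to 0.39 over 2507 transcripts in ON and 0.51 to 0.65 over 5442 in PN. At a mean FPKM of at least 2 it was 0.40 to 0.51 over 574 in ON and 0.48 to 0.67 over 2230 in PN, a narrower gap between the species.

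The sequences were not filled evenly. Over the 27 ON sequences with at least 50 stranded transcripts, the median was 3.14 distant strandless transcripts per Mio bases, and the range 0 to 7.07. NC_031968.1 had the 7.07 and held 385 of them, 10.8% of the set, against 4.30% of the stranded transcripts. That is 27.1 per 100 stranded transcripts, where the median sequence had 8.75. Near strandless transcripts were also dense there, at 8.65 per 100 stranded ones against a median of 3.97, and stranded transcripts were sparser, at 26.1 against 36.3 per Mio bases. On this sequence the median length was 361 bases, 60.8% were above 0 in every fish and 68.5% of the totals assessed were not whole. In PN the median over 152 sequences was 5.30 per Mio bases, with a range of 0 to 15.3, and 722 sequences held members against 269 in ON.

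Among the abundant ON transcripts, fish 2 stood apart from fish 1 and 3. Of the 71 with a mean FPKM of at least 10, 55 (77.5%) were highest in fish 2, where 37.6% of all ON transcripts at that level were. That mean includes fish 2, so a transcript can enter through fish 2 alone, as mRNA33597 did at 0, 34.2 and 0 FPKM. The same cut was applied to all ON transcripts. Over the 71 the median ratio of fish 2 to the mean of the others was 2.03. For the stranded transcripts nearest to them, where at a mean FPKM of at least 1 (n = 25), it was 0.89, and for all 2768 stranded transcripts with a mean FPKM of at least 10 it was 0.99. In PN 112 of 253 (44.3%) were highest in fish 2, against 38.1% of all, with a median ratio of 1.12.

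The excess lay in a limited range of ratios and on many sequences. In 45 of the 71 ON transcripts (63.4%) fish 2 was at 1.5 to 3 times the mean of the others, a range chosen after the values were seen, against 14.2% of all ON transcripts at that level. Some of these, such as mRNA12149 and mRNA37894, were low in fish 1 with fish 2 and 3 alike. Fish 2 was also at least 1.5 times each of the other fish, a rule added after seeing the data, in 38 of the 71 (53.5%), against 7.41% of all ON transcripts at that level. These 38 lie on 16 sequences and, with neighbours at gaps of at most 5000 bases joined, form 24 regions, so they are not 38 separate cases. The 38 hold 24.3% of the bases of the ON set in fish 2, 14.9% in fish 1 and 13.2% in fish 3. Their median ratio of fish 1 to fish 3 was 1.23. On NC_031968.1, mRNA6394 (1370 bases, 4535783 to 4537152) was at 24.8, 50.3 and 19.9 FPKM. Farther along the same sequence, mRNA7299 (3642 bases, 28366391 to 28370032) was at 18.4, 35.7 and 14.4 FPKM. Both, named after their values were seen, have nearly the same proportions between the fish. The profile was not particular to the distant set, since 17 of the 33 strandless ON transcripts inside stranded spans at that level (51.5%) also met both conditions, as did 7 of 36 near ones (19.4%) and 153 of 2768 stranded ones (5.53%). Covered bases, assessed here up to 100000, were not whole in 91.1% of 79 values of the 38 transcripts. For the transcripts of the other classes that met both conditions it was 87.1% of 31 values (inside stranded spans), 70.0% of 20 (near) and 70.2% of 208 (stranded). Outside the range of 1.5 to 3 it was 72.6% of 62 values for abundant ON distant strandless transcripts. For abundant ON strandless ones on sequences without stranded transcripts it was 89.3% of 28. Whether these transcripts share sequence was not tested. In PN 53 of 253 (20.9%) lay in the range, against 12.6% of all PN transcripts at that level, but 19 (7.51%) met both conditions, against 5.32%.

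**Figure D5:**
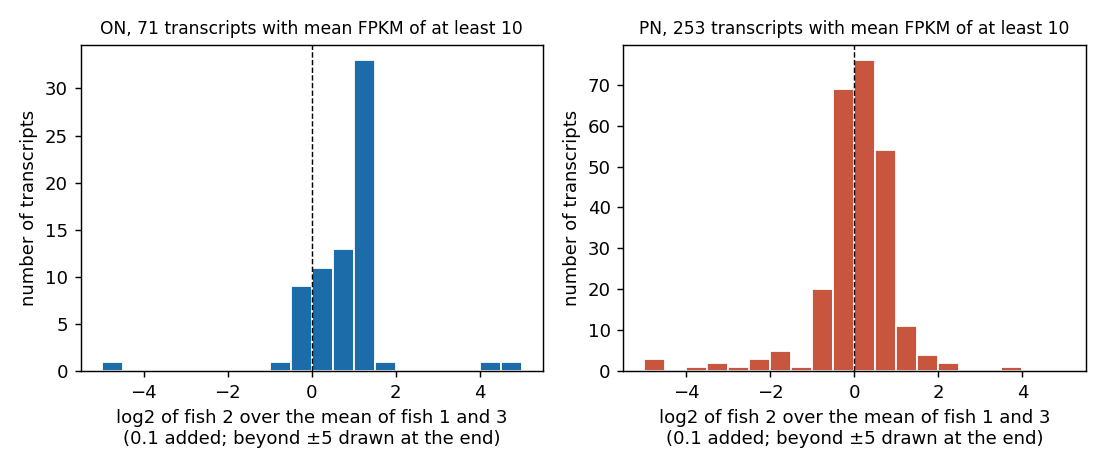
Number of distant strandless transcripts with a mean FPKM of at least 10 by the log2 ratio of fish 2 to the mean of fish 1 and 3, in ON (71 transcripts, left) and PN (253, right), with 0.1 added to each level. In ON most lie right of the dashed line at 0, with a peak at 1 to 1.5, whereas in PN they lie around 0 with some far to the left.

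Differences between fish of a species were common and sometimes very large. Of the distant strandless transcripts above 0 in every fish with a mean FPKM of at least 1, the highest fish was at least 4 times the lowest in 381 of 2004 in ON (19.0%) and 664 of 4812 in PN (13.8%). Over all transcripts passing the same filter the shares were 14.2% in ON and 13.0% in PN. Among near strandless transcripts they were 18.9% and 14.5%. At a mean FPKM of at least 10, a difference of at least 10 times, with levels under 3 reads raised to that floor, was found in 6 of 71 in ON (8.45%; 6.69% of all ON transcripts) and 18 of 253 in PN (7.11%; 5.29% of all PN transcripts). The shares of the distant set are thus near those of all transcripts.

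In 11 of these 18 PN transcripts fish 1 was at least 10 times below each of the other fish, which is 4.35% of the 253 against 1.48% of all PN transcripts at that level, a rule added after seeing the data. With neighbours at gaps of at most 5000 bases joined, the 11 form 9 regions. In ON 2 of 71 (2.82%) met this rule, against 1.26% of all. The rule was not particular to the distant set. In PN 5 of 156 strandless transcripts on sequences without stranded ones (3.21%) met it at that level. So did 3 of 108 inside stranded spans (2.78%) and 1 of 160 near ones (0.625%). In ON the same classes had 0 of 22, 1 of 33 (3.03%) and 3 of 36 (8.33%). For mRNA39043 (1713 bases, NW_005187804.1, 23500 to 25212) the levels were 0, 33.2 and 39.7 FPKM, with 1283 and 1761 read equivalents in fish 2 and 3. Fish 1 was likewise listed at 0 for mRNA27951 (529 bases, NW_005187546.1, 78447 to 78975) at 0, 26.8 and 42.7 FPKM and for mRNA32634 (831 bases, NW_005187620.1, 285773 to 286603) at 0, 23 and 22.5 FPKM. The stranded transcript nearest to mRNA32634, 8784 bases away, was level across the fish at 6.49, 6.48 and 7.04 FPKM. That nearest to mRNA39043 was not, at 0.959, 0.371 and 0 FPKM. For 12 of the 18 PN transcripts the nearest stranded one differed by under 4 times between fish. In mRNA3858 (1188 bases, NW_005187404.1, 8781399 to 8782586) fish 1 was at 0.0681 and the others at 15.8 and 17.4 FPKM, where the nearest stranded transcript was at 0.543, 0.596 and 0.532 FPKM.

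A pair of PN transcripts was high in fish 3 alone, both on NW_005187408.1. The larger, mRNA5422 (2624 bases, 2913161 to 2915784), was at 0.0615, 0.108 and 155 FPKM, or 3.91, 6.37 and 10530 read equivalents. The smaller, mRNA5314 (428 bases, 690750 to 691177), was at 0.406, 0.127 and 105 FPKM. In fish 1 and 2 both were near the floor of 3 reads, 0.0507 and 0.311 FPKM, and their nearest stranded transcripts were at 1.80, 1.49 and 2.60 FPKM and at 1.66, 1.97 and 1.5 FPKM. The transcript listed just before mRNA5314 on that sequence, mRNA5313, was abundant in all 3 fish.

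In ON the 6 transcripts had mixed orders. Fish 2 alone was listed at 0 for mRNA5153 (267 bases, NC_031966.1, 20611571 to 20611837) at 18.0, 0 and 15.5 FPKM. Fish 2 alone was above 0 for mRNA33597 (275 bases, NC_031985.1, 35963787 to 35964061) at 0, 34.2 and 0 FPKM. Fish 3 was low for mRNA18094 (1102 bases, NC_031975.1, 4091342 to 4092443) at 16.0, 31.2 and 0.818 FPKM. Fish 1 was low for mRNA37894 (347 bases, NW_017615126.1, 15283 to 15629) at 0.914, 28.8 and 23 FPKM, as it was for mRNA12149. Below the mean of 10, mRNA8528 (968 bases, NC_031969.1, 3640989 to 3641956) was at 15.4, 0 and 12.2 FPKM, with 396 and 314 read equivalents in the fish that had it. What these differences follow from was not tested.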

How the data were processed

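Liver libraries of 3 ON and 3 PN males were analysed from 6 deposited transcript tables, 1 per fish, with groups taken from the sample titles. The authors aligned the reads with HISAT2 2.1.0 and used StringTie, per the labels. Per the study's methods they assembled with the reference annotation, merged the replicates of a species, removed unexpressed and duplicated transcripts and merged similar ones. The deposited entries still include stranded transcripts without coverage in any fish, so the removal of unexpressed ones is not seen in them. The authors deposited an FPKM and a coverage signal per base for every transcript. Neither is a count, so no count model was used. A single transcript was compared between the fish of its species only. Comparison columns were not part of the tables, and 0 columns of values were left unused. StringTie's version for these files: not given in the sources used here.

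Distance was the start of the right transcript minus the end of the left one. Aligned bases were the constant ratio of coverage to FPKM, above an FPKM of 50. The sources used here do not say how often a read aligned at several places enters them. Covered bases were assessed for whole totals from 75 to 20000 bases, and up to 100000 where stated. Chains joined gaps of at most 5000 bases. The species were compared for 3 measures per library by an exact permutation test, two-sided, with Benjamini-Hochberg adjustment over the 3.

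Named in each species were the 5 transcripts with the highest mean FPKM, the 3 longest, the 3 farthest, the most abundant of each of the 3 chains with the most transcripts, and 3 each with the largest ratio between fish or the smallest relative SD (mean FPKM of at least 10, for the ratio above 0 in every fish). The 3 with the highest mean among those at 0 in a fish were named too. The set, this rule and the measures were chosen with earlier results of these data known. Alternatives covered distance, FPKM minimums, pseudocounts, chaining, the most abundant transcript, each fish left out and a replicate block. Classification, chains and whole totals were tested on simulated data, with 0 of 600, 0 of 297 and 0 of 2000 wrong. The tools were scipy 1.17.1, pandas 2.3.3, numpy 2.4.6 and matplotlib 3.10.9, under Python 3.11.15. Positions are those of the tables. No genome of these builds was used here, so no sequence is shown.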

Additional observations from a re-analysis of the deposited data

Results flagged for a closer look

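The median log2 FPKM of distant minus near strandless transcripts lay below 0 in all 3 ON fish and above 0 in all 3 PN fish, with a PN minus ON difference of 0.11. The two-sided exact permutation test gave its smallest possible p, 0.10, with n = 3 fish per species. With an FPKM of at least 1 required in every fish, the ON mean was 0.01 and the PN mean 0.04, so ON no longer lay below 0. The difference is small beside the range of levels within either set, and its cause was not tested.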

How the results depend on the processing

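The 3 PN minus ON differences kept their sign under every alternative that gave a value (14, 15 and 16 of them). The share of aligned bases was 0.39 to 0.73 percentage points higher in PN, the share above 0 was 3.25 to 13.3 points higher, and the median log2 difference ran from 0.02 to 0.13. The last fell to 0.02 where each of the 3 fish had to reach an FPKM of 1 (p = 0.60 in the exact permutation test), and the ON mean itself turned from -0.02 to 0.01. At that minimum every transcript is above 0, so the share above 0 gives no value. Leaving out each fish gave 0.43 to 0.63 points, 5.78 to 6.75 points and 0.10 to 0.12. The p of 0.20 for 2 fish against 3 is the smallest that design allows and bears on stability in neither direction. The replicate numbers mark different fish, which nothing pairs. In a replicate block by that number, the exact sign-flip permutation gave p = 0.25, the smallest that 3 pairs allow, for differences of 0.52 points, 6.24 points and 0.11. At a distance of at least 20000 bases, 1963 transcripts remained in ON and 4107 in PN. At gaps of at most 1000 bases, 548 ON and 1028 PN transcripts were in chains.

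Settings chosen after seeing the data left the share downstream at 48.9% to 50.9% in ON and 49.7% to 51.7% in PN, and the share not whole at 52.9% to 56.4% and 58.0% to 62.7%. The correlation of neighbours under 1000 bases apart was 0.50 in ON and 0.48 in PN. At a mean FPKM of at least 2 it was 0.15 over 54 ON pairs and 0.80 over 82 PN pairs. With a pseudocount of 1, or without the 3 largest chains, it was 0.47 to 0.51. With each chain as 1 region, 73.8% of 42 abundant ON regions were highest in fish 2. Without a fish, 76.5% to 78.8% of the ON set and 87.1% to 89.4% of the PN set were above 0 in the others.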
